A study of Mus musculus with 4 samples.

Results

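The pentose phosphate pathway and 2 further enzymes that make NADPH were followed through 9 genes, G6pdx, Pgls, Pgd, Rpia, Rpe, Tkt, Taldo1, Idh1 and Me1, taken by name from the 54532 genes of the deposited table. The samples were RNA-seq libraries of naive CD4+ T cells of wild-type mice, from the spleen, kept for 3 days in culture that drives them towards T follicular helper (Tfh) cells, which help B cells make antibody. The control group (2 libraries) had no treatment and the DMF group (2 libraries) had dimethyl fumarate, an electrophilic ester of fumaric acid known to switch on Nrf2, a transcription factor of the response to oxidants. The labels give no dose of DMF and no age or strain of the mice, and do not say whether the replicates were separate animals or cultures, so p-values measure only the spread between these 4 libraries.

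The pentose phosphate pathway branches off glycolysis at glucose 6-phosphate. Its oxidative branch yields NADPH, the reducing power used to regenerate glutathione and thioredoxin and to build lipids and proline, and its non-oxidative branch interconverts sugar phosphates and supplies ribose 5-phosphate for nucleotides. Dividing T cells draw on both outputs. Several of these genes, among them G6pdx, Pgd, Tkt, Taldo1, Me1 and Idh1, are known in other cells as targets of Nrf2, which binds antioxidant response elements in DNA.

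The starts of these genes were searched for the core of that element, TGACNNNGC, on both strands, in the windows that RefSeq (GRCm38.p6) gives for them, from 250 bases before to 50 bases after each start. Of the 12 windows of the 9 genes, 3 held a match, as did 12.4% of the 32851 windows of all genes. The matches lay near starts of G6pdx and Me1 and, 4 bases past an internal start, of Pgd. No window of the 9 genes held the E-box CACGTG, found in 7.15% of all windows. A match is a run of letters and not a measured site, and no match says nothing of the factor. The G6pdx and Me1 windows are shown for the match, in capitals, and the window of Rpe, the tested gene with the highest log2 change of the 9, for comparison. All are written 5′ to 3′ on the strand of the gene, which is the minus strand for G6pdx (chrX:74428831-74429130) and Me1 (chr9:86695865-86696164) and the plus strand for Rpe (chr1:66700581-66700880).
G6pdx: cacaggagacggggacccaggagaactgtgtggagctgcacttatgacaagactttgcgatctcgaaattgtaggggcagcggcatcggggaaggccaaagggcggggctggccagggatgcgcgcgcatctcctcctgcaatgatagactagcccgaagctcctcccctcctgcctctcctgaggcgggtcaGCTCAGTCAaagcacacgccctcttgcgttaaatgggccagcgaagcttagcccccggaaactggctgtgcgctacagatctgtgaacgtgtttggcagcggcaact
Me1: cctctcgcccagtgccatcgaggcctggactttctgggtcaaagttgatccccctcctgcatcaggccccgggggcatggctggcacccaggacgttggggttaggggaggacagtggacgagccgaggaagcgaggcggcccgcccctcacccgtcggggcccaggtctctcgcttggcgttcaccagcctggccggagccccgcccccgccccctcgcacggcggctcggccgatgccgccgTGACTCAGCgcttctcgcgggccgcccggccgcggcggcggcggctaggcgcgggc
Rpe: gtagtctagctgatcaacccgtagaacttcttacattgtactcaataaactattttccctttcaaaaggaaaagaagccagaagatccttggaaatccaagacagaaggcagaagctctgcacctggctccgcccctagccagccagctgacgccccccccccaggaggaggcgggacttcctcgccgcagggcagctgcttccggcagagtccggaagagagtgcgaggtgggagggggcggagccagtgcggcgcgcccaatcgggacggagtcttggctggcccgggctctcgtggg
The match in G6pdx is on the opposite strand, with its first printed base at -57 from the start, and that in Me1 is on the gene's strand, from -6.

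None of these genes passed the test between the groups, and in Pgls and Taldo1 control replicate 2 was 2.48 and 1.93 times control replicate 1. Rpe and Idh1 were higher in both DMF libraries, and Pgls, Pgd, Tkt and Taldo1 lower, by amounts within what limma could not separate from the spread. Levels are in FPKM, fragments scaled to gene length and to a library size set by the authors. Libraries held 15900118 to 17516953 reads, worked out from the FPKM. Over the 12166 genes with a mean of at least 1 FPKM, the log2 difference between the controls had an SD of 0.74, against 0.32 between the DMF libraries. Control replicate 2 was the library apart: 14.3% of its reads were of ribosomal protein genes, against 6.53% to 7.14% in the others, and it departed from them by gene length, with a median of 0.75 on the log2 scale in genes of 580 to 1444 bases and -0.63 in genes of 8933 to 40491 bases. Markers of CD4 T cells were present in every library, with Cd4 at 100 to 128 FPKM. Their summed FPKM was 1434 and 2647 in controls and 1326 and 1261 in DMF libraries. Of these 7 markers 5 were lower in both DMF libraries and 0 higher. Over all tested genes, 26.4% lay above both controls and 26.8% below. Among the summed FPKM of the other marker lists, CD8 T or NK cells were at 13.2 and 21.7 in controls and 3.04 and 2.96 in DMF libraries, with Klrb1c and Ncr1 at 0 throughout. B cells were at 80.9 and 121 against 87.4 and 85.8, with 6 of 7 markers higher in both DMF libraries and the abundant Ighm lower. Of those 6, Ms4a1 had a mean below 1 FPKM and was not tested. Myeloid and erythroid markers summed to 12.5 FPKM or less and 3.06 or less in every library. Their part in the results was not tested, and in bulk RNA fewer cells of a type and less RNA per cell cannot be told apart.

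limma called 0 of the 8 tested genes of the set (Me1 lay below the filter) and 0% of all 12166 genes at an adjusted p under 0.05, on log2(FPKM + 1), a scale that understates changes of low genes. Of all genes, 1150 had an unadjusted p under 0.05, and limma's voom on the reads called 0. Both DMF libraries lay above both controls for 2 of the 8 tested genes, Rpe and Idh1, and below both for 4, Pgls, Pgd, Tkt and Taldo1. Over all tested genes these shares were 26.4% and 26.8%. The median log2 change of the 8 was -0.12, against -0.01 over all tested genes, and it moved to 0.05 when control replicate 2 was left out and to -0.28 when control replicate 1 was. In each library the levels ran in nearly the same order, Taldo1 highest, Rpe sixth, Rpia seventh, Idh1 eighth and Me1 last.

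**Figure D1:**
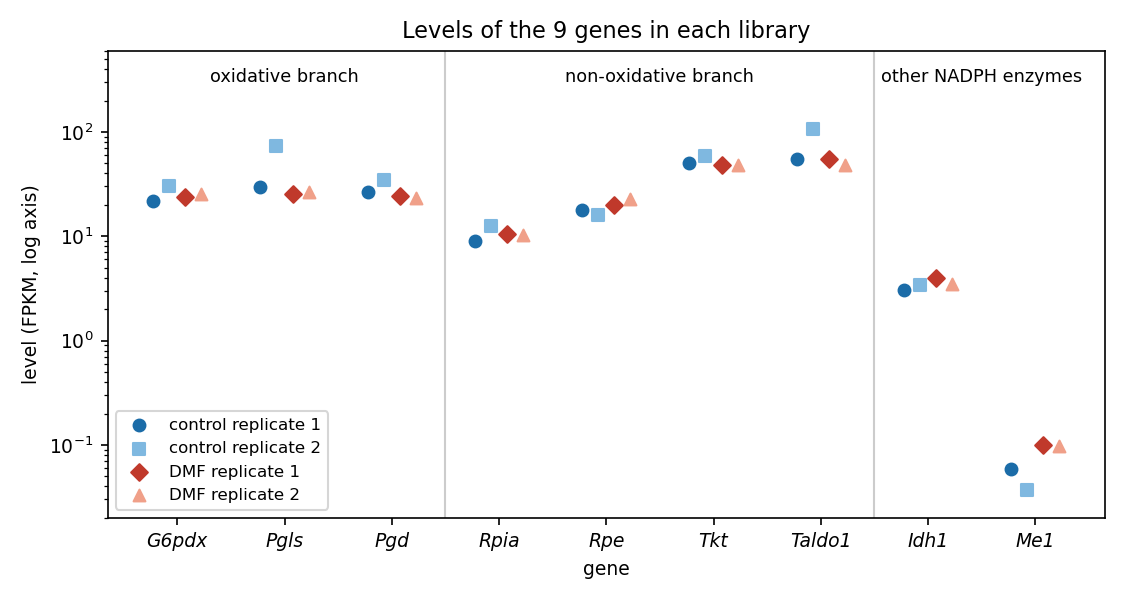
Level of each of the 9 genes in FPKM (log axis) in the 4 libraries, 1 point per library, with genes grouped by role. Control replicate 2 is the highest point for Pgls (73.6) and Taldo1 (107), while the other 3 libraries lie close together.

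In the oxidative branch, G6pdx (ENSMUSG00000031400, GRCm38 chromosome X, 74409483 to 74429194) encodes glucose 6-phosphate dehydrogenase, the first and rate-setting step, which makes NADPH. It was at 22.0 and 30.1 FPKM in control replicates 1 and 2 and at 24.0 and 25.6 FPKM in DMF replicates 1 and 2. The DMF values lay between those of the controls, with a log2 change of -0.05 ± 0.23 (SE, limma adjusted p = 0.913). That sign was positive without control replicate 2 (0.17), with the gene length trend removed (0.11) and under quantile normalization (0.10). It was also positive in voom (0.11) and with each library's FPKM rescaled to a common sum (0.34). The median of all tested genes was 0.15 in voom and 0.36 with that rescaling. Over 16 alternatives the limma adjusted p of G6pdx ran from 0.0368 to 1. Exons of G6pdx overlap those of Ikbkg, so some reads may belong to either gene. The retrogene copy G6pd2 was listed at 0 in every library.

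Pgls (GRCm38 chromosome 8, 71592176 to 71601092) encodes the lactonase that opens the product of G6pdx. Its FPKM was 29.7 and 73.6 in the controls and 25.6 and 26.3 in the DMF libraries. The group means of 51.6 ± 31.0 and 25.95 ± 0.485 FPKM (SD, n = 2) gave a ratio of DMF to control of 0.503, but control replicate 2 alone was 2.48 times control replicate 1. The log2 change of -0.83 ± 0.47 (SE, limma adjusted p = 0.561) shrank to -0.19 with control replicate 2 left out and grew to -1.47 with control replicate 1 left out, and its adjusted p ran from 0.0014 to 1 over the alternatives. Pgls lay below the controls in both DMF libraries under each of the 16 alternatives. Its exons overlap those of Fam129c.

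Pgd (GRCm38 chromosome 4, 149149991 to 149166771) encodes 6-phosphogluconate dehydrogenase, the step that makes the other NADPH of the branch and releases ribulose 5-phosphate. It was at 26.8 and 34.8 FPKM in the controls and 24.3 and 23.3 FPKM in the DMF libraries, so the groups did not overlap. The log2 change was -0.35 ± 0.21 (SE, limma adjusted p = 0.561, 0.00593 to 1 over the alternatives). It was -0.17 without control replicate 2, -0.46 with the gene length trend removed and 0.03 with FPKM rescaled to a common sum, where the groups overlapped.

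In the non-oxidative branch, ribulose 5-phosphate goes to ribose 5-phosphate through the isomerase gene Rpia or to xylulose 5-phosphate through the epimerase gene Rpe. Rpe (GRCm38 chromosome 1, 66700831 to 66719805) was at 17.8 and 16.0 FPKM in the controls and 20.1 and 22.9 FPKM in the DMF libraries. Both DMF values lay above both controls, with means of 16.9 ± 1.28 and 21.5 ± 1.94 FPKM (SD, n = 2), a ratio of 1.27. The log2 change of 0.33 ± 0.18 (SE, limma adjusted p = 0.561) was positive in all 16 alternatives, from 0.24 without DMF replicate 2 to 0.73 with FPKM rescaled to a common sum, and its adjusted p ran from 0.0378 to 1. Exons of Rpe overlap those of Kansl1l. Rpia (GRCm38 chromosome 6, 70765720 to 70792232) was at 8.93 and 12.6 FPKM in the controls and 10.4 and 10.3 FPKM in the DMF libraries, which lay between the controls. Its log2 change of -0.03 ± 0.22 (SE, limma adjusted p = 0.943) was 0.20 without control replicate 2, 0.13 in voom and 0.35 with FPKM rescaled.

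Tkt and Taldo1 encode transketolase and transaldolase, which move carbon units between sugar phosphates and link the pathway back to glycolysis. Tkt (GRCm38 chromosome 14, 30548359 to 30574720) was at 50.2 and 59.4 FPKM in the controls and 47.7 and 48.5 FPKM in the DMF libraries. Both DMF values lay just below both controls, with a log2 change of -0.18 ± 0.20 (SE, limma adjusted p = 0.659, 0.0118 to 1 over the alternatives), which was 0.09 under quantile normalization and 0.21 with FPKM rescaled. It was -0.06 with control replicate 2 left out and -0.30 with control replicate 1 left out. Taldo1 (GRCm38 chromosome 7, 141392199 to 141402968), at the 93.2nd percentile of mean level among tested genes, was at 55.5 and 107 FPKM in the controls and 54.8 and 48.6 FPKM in the DMF libraries. Control replicate 1 and DMF replicate 1 were nearly equal, and the log2 change of -0.57 ± 0.37 (SE, limma adjusted p = 0.561) was -0.10 with control replicate 2 left out and -1.04 with control replicate 1 left out, where limma's adjusted p was 0.0040 (up to 1 over the alternatives). The groups overlapped under quantile normalization, in voom, with the length trend removed and with FPKM rescaled.

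Outside the pathway, Idh1 (GRCm38 chromosome 1, 65158616 to 65186500) encodes the cytosolic isocitrate dehydrogenase that reduces NADP+. It was at 3.03 and 3.42 FPKM in the controls and 3.96 and 3.50 FPKM in the DMF libraries, from 132 to 201 reads per library. Both DMF values lay above both controls, the nearer by little, and the log2 change of 0.16 ± 0.19 (SE, limma adjusted p = 0.669) was positive in all 15 alternatives in which it was tested, from 0.09 to 0.55. Me1 (GRCm38 chromosome 9, 86581371 to 86695953), the cytosolic malic enzyme, was close to undetected: control replicate 1 had 4 reads, control replicate 2 had 2, and the DMF libraries 7 each. The sums of 6 and 14 reads gave a ratio of 2.23 per read sequenced, with an exact 95% interval of 0.804 to 7.07 for counting error only, so no difference was detectable at this depth. Exons of Me1 overlap those of A330041J22Rik.

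Which control library was kept decided the calls for these genes. Without control replicate 1, limma called 7 of the 8, Rpe higher and the 6 of both branches other than Rpe lower. The same fit called 27.6% of all tested genes higher and 33.4% lower, with the single remaining control taken to vary like the DMF libraries. Without control replicate 2 it called 0 of the 8, against 2.77% of all tested genes higher and 5.51% lower, and G6pdx, Rpia, Rpe and Idh1 were above and Pgls, Pgd, Tkt and Taldo1 below the remaining control. Of all tested genes, 43.4% lay above that remaining control in both DMF libraries and 39.6% below. With the gene length trend removed, both DMF libraries lay above both controls for 2 of the 8 (29.5% of all tested genes) and below for 3 (24.8%). With FPKM rescaled to a common sum, a setting that moved the median log2 change of all tested genes to 0.36, these counts were 5 (47.5%) and 1 (12.6%). The median of the 8 was then 0.28, below that of all genes.

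**Figure D2:**
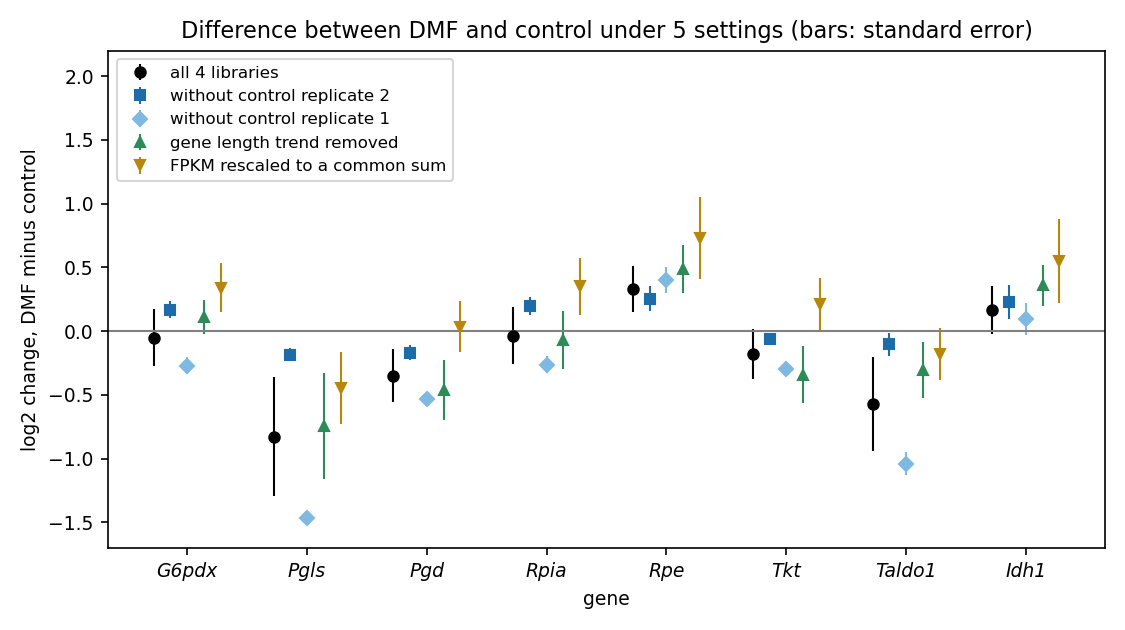
Log2 change between DMF and control of the 8 tested genes under 5 settings, with standard errors from limma as bars and 1 point per gene and setting. Rpe and Idh1 lie above 0 and Pgls and Taldo1 below 0 in each setting drawn, while G6pdx, Rpia, Tkt and Pgd lie on either side.

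Ratios between genes within a library do not depend on how libraries are scaled, although they keep the length trend. For the NADPH-making steps of the oxidative branch these ratios did not overlap between the groups. Neither did 52.9% of the ratios among all tested genes with reads in every library. The FPKM of G6pdx over that of Pgd was 0.820 and 0.866 in the controls and 0.990 and 1.10 in the DMF libraries, with a counting SE of 3.22% to 3.40%. Both DMF ratios were above both controls, with means of 0.843 ± 0.0326 and 1.05 ± 0.0795 (SD, n = 2), 1.24 times higher in DMF. An exact two-sided permutation test of 2 against 2 libraries cannot give a p under 0.333. That is its value for any ratio that does not overlap between the groups, so it adds nothing here. Pgd was also lower relative to Tkt, at 0.534 and 0.585 in the controls and 0.508 and 0.479 in the DMF libraries. Against Rpia, Pgd was at 3.00 and 2.75 in the controls and 2.32 and 2.26 in the DMF libraries. G6pdx over Rpia overlapped, at 2.46 and 2.38 against 2.30 and 2.49.

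Of the 28 ratios among the 8 tested genes, 18 did not overlap between the groups, or 64.3%, against 52.9% of the ratios among all tested genes with reads in every library. Pgd was the relatively lower gene in all 5 of its 7 ratios that did not overlap, as was Pgls in 5 and Taldo1 in 4. Rpe and Idh1 were each the relatively higher gene in all 5 of their non-overlapping ratios. Pgd over Rpe, the enzymes that make ribulose 5-phosphate and turn it into xylulose 5-phosphate, was at 1.504 and 2.17 in the controls and 1.20 and 1.02 in the DMF libraries. Tkt over Taldo1 overlapped, at 0.904 and 0.554 against 0.870 and 0.998. Summed by branch, oxidative over non-oxidative FPKM was 0.592 and 0.709 in the controls and 0.555 and 0.577 in the DMF libraries, a gap smaller than that between the controls. The 9 genes took 0.0675% and 0.0692% of the summed FPKM of all genes in the controls and 0.0715% and 0.0694% in the DMF libraries.

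**Figure D3:**
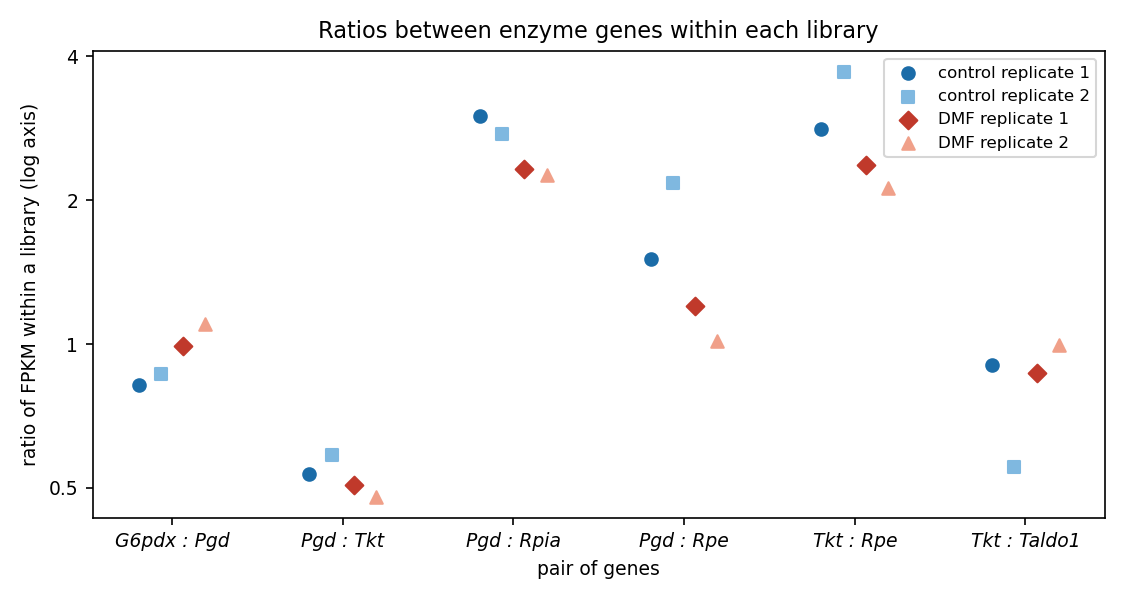
Ratio of FPKM between the genes of 6 pairs within each library (log axis), 1 point per library. Among all tested genes with reads in every library, 52.9% of ratios did not overlap between the groups. The DMF points of G6pdx over Pgd (0.990 and 1.10) lie above both controls, those of Pgd over Tkt, Rpia and Rpe and of Tkt over Rpe lie below both, and Tkt over Taldo1 overlaps.

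The 3 genes nearest to G6pdx in pattern, by Euclidean distance between log2 levels centred on each gene's mean over the 4 libraries, were Hdac3 (0.03), Trmt61a (0.03) and Cnbd2 (0.03). Those nearest to Tkt were Wdr92 (0.0029), Riok3 (0.015) and Eif4e (0.015). With 4 libraries such likeness is a description of these samples alone.

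Other genes around the pathway were taken as whole lists, and limma called 0 of their tested members. Beside the counts of these lists, 26.4% of all tested genes lay above both controls and 26.8% below. With FPKM rescaled, the median log2 change of all tested genes was 0.36. Among 11 tested neighbouring enzymes, 3 lay above both controls and 2 below (4 further genes were below the filter). Prps2, which turns ribose 5-phosphate into the nucleotide precursor PRPP, was at 19.3 and 15.2 FPKM in the controls and 22.4 and 23.0 FPKM in the DMF libraries. Tigar, a phosphatase that steers sugar into the pathway, was at 7.09 and 5.63 FPKM against 7.71 and 8.35. Both were above the controls, as Rpe was, while Rbks, which phosphorylates free ribose, was at 3.49 and 5.98 against 3.12 and 3.20 FPKM. In upper glycolysis 2 of 13 lay above and 5 below, with Pfkp, a phosphofructokinase, at 40.9 and 29.3 against 48.6 and 49.9 FPKM, and Aldoc, an aldolase, at 5.91 and 8.62 against 3.73 and 4.05. The median of the neighbouring enzymes was -0.05, and turned positive with control replicate 2 left out (0.05), the length trend removed (0.22) or FPKM rescaled (0.35). That of upper glycolysis was -0.15, and was -0.09 with control replicate 2 left out and 0.24 with FPKM rescaled.

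A list around other supply of NADPH and NADP also held Mthfd1l, whose enzyme does not itself make NADPH, and Me2, whose enzyme works mainly with NAD. Of its 8 tested genes, 5 lay above both controls, these 2 among them, and 2 below (26.4% and 26.8% of all tested genes). The median log2 change of the list was 0.20. Leaving out control replicate 2 gave 0.25, leaving out control replicate 1 gave 0.13, removing the length trend gave 0.27, and rescaling FPKM gave 0.60. Mthfd1l and Mthfd1, enzymes of the folate cycle, were at 22.8 and 20.6 against 30.6 and 31.6 FPKM and at 26.01 and 23.1 against 33.5 and 30.9 FPKM. Nadk2, the mitochondrial NAD kinase, was at 4.25 and 3.39 against 4.96 and 4.75 FPKM. In the other direction Idh2, the mitochondrial counterpart of Idh1, was at 11.1 and 14.9 against 10.6 and 9.87 FPKM. Nnt, the mitochondrial transhydrogenase that makes NADPH from NADH, was below the filter, at 0.0561 to 0.175 FPKM from 7 to 23 reads.

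A list around redox defence with NADPH also held genes, such as Srxn1, whose enzymes do not depend on it. Its tested genes lay in both directions, 5 of 11 above both controls and 5 below (26.4% and 26.8% of all tested genes). Their median of -0.17 was 0.20 without control replicate 2, -0.55 with control replicate 1 left out and 0.20 with FPKM rescaled. The thioredoxin reductase gene Txnrd1 stood at 25.99 and 20.3 FPKM in the controls and 40.1 and 38.5 in the DMF libraries, with a log2 change of 0.75 ± 0.21 (SE, limma adjusted p = 0.417). Srxn1, a sulfiredoxin, was at 2.08 and 1.55 against 3.95 and 3.04 FPKM, and Hmox1, heme oxygenase 1, at 7.18 and 10.5 against 13.4 and 13.7 FPKM. The quinone reductase gene Nqo1 missed the filter, at 0.472 and 0.370 against 1.27 and 1.34 FPKM, from 8 to 39 reads. In the other direction Cbr1, a carbonyl reductase, was at 12.0 and 19.6 against 8.94 and 9.08 FPKM. Gsr, the glutathione reductase, named for its role after its values were seen, was at 37.3 and 44.3 against 28.4 and 29.4 FPKM. A list around building molecules with NADPH also held Srr and Cyb5r3, whose enzymes do not depend on it. Of its 10 tested genes, 6 lay above both controls and 1, Cyb5r3, below (26.4% and 26.8% of all tested genes), with a median of 0.23. That median became 0.14 with control replicate 2 left out, 0.40 with control replicate 1 left out and 0.62 with FPKM rescaled. Aldh18a1, of proline synthesis, was at 17.3 and 14.8 against 23.0 and 21.8 FPKM, and Fasn, the fatty acid synthase, at 58.1 and 33.8 against 66.3 and 66.8.

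Subunits of the phagocyte NADPH oxidase, which spends NADPH to make superoxide, had a median log2 change of -0.88 over 5 tested genes, 4 below both controls and 1 above (26.8% and 26.4% of all tested genes). The median was -0.52 with control replicate 2 left out, -1.24 with control replicate 1 left out and -0.49 with FPKM rescaled. Ncf1 was at 18.7 and 24.6 FPKM in the controls and 3.82 and 3.13 in the DMF libraries, a log2 change of -2.33 (limma adjusted p = 0.156) that was -2.15 without control replicate 2. Cybb, the catalytic subunit, lay the other way, at 0.971 and 0.334 against 1.72 and 1.72 FPKM. Its control mean of 0.653 FPKM was under the filter of 1. Cybb was tested only through its DMF values, so its place above the controls carries no weight. Rac2 was at 265 and 436 against 184 and 185 FPKM. Cyba, named for its level after its values were seen, was at 221 and 513 against 167 and 169 FPKM. In Cyba control replicate 2 was 2.32 times control replicate 1. Other blood cells also express these subunits, and markers of several cell types lay apart too, those of CD4 T cells among them. Of the 9 myeloid markers, 6 of them below the filter, 4 lay below both controls and 2 above. Cd14 was at 1.44 and 3.29 against 0.487 and 0.613 FPKM and Lyz2 at 2.40 and 3.33 against 1.58 and 0.407. The 2 above were Cd68, at 4.62 and 5.43 against 5.82 and 5.84 FPKM, and S100a9, with 0 to 3 reads per library. The CD8 T or NK markers were below in 5 of 7, as were the CD4 T cell markers, and the B cell markers above in 6 of 7. Of these lists, 4 CD8 T or NK markers and 1 B cell marker were below the filter. Pax5 passed it only through its DMF values, and Cd8a and Klrd1 only through their control values. With no filter, 9.9% of all genes lay above both controls and 9.5% below, against 26.4% and 26.8% of tested genes. The part of these cells was not tested. Among 10 regulators 3 lay above and 2 below (26.4% and 26.8% of all tested genes). Their median of -0.11 was 0.00034 with control replicate 2 left out, 0.0071 with the length trend removed and 0.28 with FPKM rescaled. Sirt2, a deacetylase that acts on the G6pdx enzyme, was at 35.2 and 38.1 against 24.9 and 25.0 FPKM, and Bach1, a repressor at antioxidant response elements, at 2.09 and 0.790 against 3.07 and 2.44. The gene of Nrf2 itself, Nfe2l2, was at 12.9 and 12.0 against 12.8 and 12.0 FPKM.

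**Figure D4:**
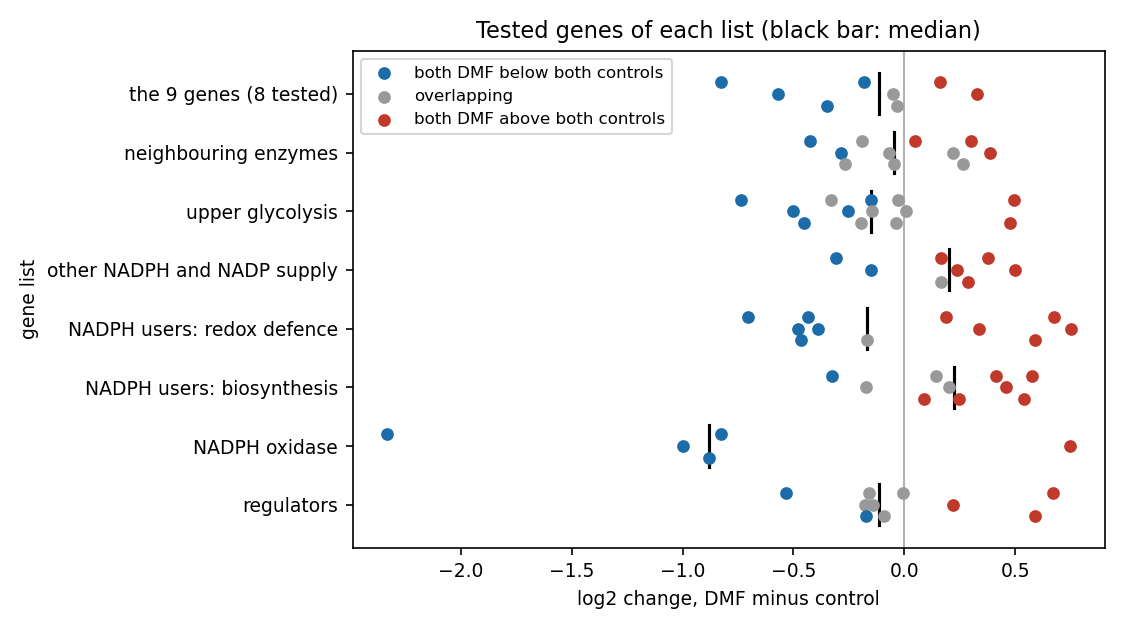
Log2 change between DMF and control of each tested gene in 8 lists, coloured by whether both DMF libraries lay above, below or across both controls, with the list's median as a black bar. The 8 tested genes of the set have a median of -0.12, other NADPH and NADP supply 0.20 and the NADPH oxidase subunits -0.88.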

How the data were processed

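The authors deposited FPKM values for all libraries in 1 table, which per the file headers also lists each gene's name, position and length. The submitters' processing notes name edgeR and mm8, with no role for either. The sources used here do not give the aligner or counter. Of the 54409 gene identifiers found in GENCODE M21 (GRCm38), 98.3% had the same chromosome, start and end, and all 9 genes matched, so GRCm38 is used. FPKM times gene length gave whole multiples of 1 step, within 0.01, for 100% of the values of each library, which gave the reads. Library sizes implied by the FPKM were 0.876 times the read total in control replicate 2 and 1.03 to 1.07 times in the others.

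The main test was limma 3.58.1 (lmFit, eBayes with a trend) under R 4.3.3, comparing DMF with control in log2(FPKM + 1) with a two-sided test, over every gene averaging 1 FPKM or more, with Benjamini-Hochberg adjustment over all of them and a threshold of 0.05. The fit was also run on simulated data with a fixed spread and set changes, unlike these libraries, and no result here rests on it. The genes and lists were chosen with earlier results of these data known. All 9 genes are named, then at most 4 of each list by smallest p, of which 1 is not reported here. Rescaling each library's FPKM to a common sum was chosen after the data were seen. The other alternatives and their effect are given below.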

Additional observations from a re-analysis of the deposited data

How the results depend on the processing

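Among the 8 tested genes, Pgls and Taldo1 kept a negative and Rpe and Idh1 a positive log2 change in each alternative in which they were tested. The signs of the others reversed as follows. Quantile normalization gave 0.0975 for G6pdx and 0.0939 for Tkt, voom 0.115 for G6pdx and 0.132 for Rpia, and removal of the gene length trend 0.111 for G6pdx. FPKM rescaled to a common sum gave 0.340 for G6pdx, 0.0342 for Pgd, 0.213 for Tkt and 0.35 for Rpia, with a median of 0.276 over the 8. In that setting 5 of the 8 lay above both controls and 1 below (47.5% and 12.6% of all tested genes). Leaving out each library gave -0.270 to 0.167 for G6pdx and -0.264 to 0.195 for Rpia. The median of the 8 was also positive under quantile normalization (0.0404), in voom (0.0499) and without control replicate 2. The median of all tested genes was 0.0258, 0.153 and 0.0144 in those settings, and 0.356 with FPKM rescaled. In voom and with FPKM rescaled, the median of the 8 lay below that of all tested genes. Quantile normalization left 1 of the 8 above and 2 below both controls (29.7% and 24.1% of all tested genes). A mean of at least 5 FPKM, which dropped Idh1, left 1 above (25.1% of the genes then tested). Leaving out each library gave 2 to 4 above and 4 to 6 below. The shares over all tested genes were then 32.2% to 43.6% above and 32.8% to 49% below. The cause was not tested.

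Over all genes limma called 1034 with no filter on low values and 6 to 7420 with each library left out. With the replicate number as a block limma called 552 genes, or 4.54% of all tested genes, and 0 of the 8. Same-numbered libraries did not deviate together (correlation -0.02 over tested genes), and the labels give the number no meaning. Pseudocounts of 0.1 and 0.5, a trimmed mean of log ratios and eBayes without a trend or robust called 0 genes and changed no sign among the 8. Depth limits Me1, with 2 to 7 reads per library, and Idh1, with 132 to 201.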
